A study of Mus musculus with 16 samples.

Results

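The data described are the RNA levels of 10 genes in sorted splenic B cells of mice that lack the transcription factor TFII-I in B cells, and of control mice. The genes are Plbd1, Flt3, Gpr34, Cd209a, Serpina3f, Serpina3g, Col27a1, Nectin1, Sema6b and Gm4734, which are 10 of the 27928 genes in the table. Several are better known from innate immune cells or stromal cells than from B cells, while Gm4734 is a processed pseudogene. The 10 genes were chosen by symbol, as genes described as gained in B cells without TFII-I, although the study's text does not name Sema6b. That choice was made on measured values of these same libraries. Plbd1, Flt3, Gpr34, Nectin1, Col27a1, Serpina3f and Serpina3g were named with the comparison of genotypes in marginal zone (MZ) B cells. Cd209a and Gm4734 were named from comparisons of follicular (FO) with MZ B cells, as Gpr34 was in addition, and the source of Sema6b is not given in the sources used here. Differences in a contrast that selected a gene are therefore given as a description, with no test. The study also set its FO and MZ lists of genotype differences side by side, so the FO values are not shown to be independent of the choice, and the p-values given for FO B cells carry that limit.

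TFII-I, the product of Gtf2i, is a multifunctional transcription factor that binds initiator elements and E-box sequences and is phosphorylated after B cell receptor signaling. FO B cells recirculate through follicles and mainly take part in T cell-dependent responses, while MZ B cells stay at the marginal sinus of the spleen and respond quickly to blood-borne antigens. Several of the genes studied here belong to other lineages by reputation: Flt3 and Cd209a are used to describe dendritic cells, Plbd1 and Gpr34 are familiar from myeloid cells, and Col27a1 from connective tissue.

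The RNA was measured in 4 groups with 2 libraries each. WT mice were C57BL/6, and cKO mice were Gtf2i fl/fl mice with the gene deleted conditionally in B cells. All mice were young adults, and no treatment is given for them. Splenic B cells were enriched by negative selection and sorted as CD21lo CD23hi FO or CD21hi CD23lo MZ B cells, and ribosomal RNA was depleted before 50 bp single-end sequencing. The labels do not say whether replicates came from separate animals, nor whether an FO and an MZ library came from the same mouse, so p-values measure only the spread between these samples.

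Reads on genes numbered from 21546552 to 25083552 a library. The values are normalized counts, in which the reads of a library are scaled by its size factor. Cr2, which encodes CD21, was at 22942 to 26803 in the FO and 86953 to 97087 in the MZ libraries, and Fcer2a, which encodes CD23, at 24802 to 41973 and 3069 to 6708, as sorted. Gtf2i itself was at 1992 to 2864 in the WT and 1523 to 1889 in the cKO libraries. Its log2 differences of -0.4 in FO and -0.54 in MZ B cells were not called (limma adjusted p = 0.989 and 0.363). Much of the gene's RNA signal thus remained in the cKO libraries, and the study reports its own checks of the deletion in DNA, RNA and protein. Xist, the X inactivation transcript, ranged from 25930 to 47002 among WT libraries and from 21.7 to 89.7 in 3 cKO libraries, with 14748 in cKO FO replicate 1. Ddx3y, on the Y chromosome, was at 0.998 to 6.34 in the WT and at 2682 to 5514 in the cKO libraries. The library cKO FO replicate 1 thus held both transcripts, with Ddx3y at 2682, while cKO FO replicate 2 had Xist at 67.4 and Ddx3y at 4439. Whether replicate 1 held cells of both sexes was not tested, and the cKO FO replicates differ in these transcripts. Genotype and the sex of the mice, read from these transcripts, cannot be told apart in any genotype difference below, and Gpr34 is X-linked. All levels are of sorted populations, in which fewer cells of a type and less RNA per cell cannot be told apart.

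Flt3, the receptor tyrosine kinase of hematopoietic progenitors and of dendritic cell development, was low in WT B cells and higher in the cKO libraries of each subset. Its normalized count was 110 and 96.1 in WT FO, 140 and 158 in cKO FO, 150 and 114 in WT MZ, and 302 and 286 in cKO MZ libraries. Flt3 spans 147330741 to 147400489 on the minus strand of chromosome 5, which also carries Gtf2i. Both cKO MZ libraries lay above the other 6, whereas cKO FO and WT MZ B cells overlapped. In MZ B cells, the contrast it was selected from, the cKO mean of 294 ± 11.6 (SD, n = 2) was 2.22-fold the WT mean of 132 ± 25.6 (SD, n = 2). In FO B cells the difference was 0.53 on the log2 scale (95% interval 0.07 to 0.99) and was not called, with a limma adjusted p = 1.00.

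Plbd1 (chromosome 6, 136612070 to 136661928, minus strand) encodes a protein with a phospholipase B domain. It was abundant in every library, with 1109 and 967 in WT FO, 1529 and 1680 in cKO FO, 2591 and 2386 in WT MZ, and 3245 and 3700 in cKO MZ B cells. The 4 groups did not overlap, and their order was cKO MZ, WT MZ, cKO FO and WT FO. The cKO mean was 1.40-fold the WT mean in MZ B cells and 1.55-fold in FO B cells. The study named Plbd1 from its MZ list with a cutoff of 1.5-fold, which the MZ ratio computed here does not reach. The FO difference of 0.63 on the log2 scale (SE 0.112) had a limma adjusted p = 0.401 and an edgeR adjusted p = 0.404, while DESeq2 on the reads called it with an adjusted p = 0.00626. Its alternatives ranged from 0.00626 to 1.00. The transcript model Gm44401 lies on the opposite strand inside Plbd1 without sharing exon bases, and its values of 59.9 to 75.8 in WT FO and 97.4 to 97.6 in cKO FO libraries were ordered in the same way. Whether counting used the strand is not given in the sources used here.

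Gpr34 (chromosome X, 13632089 to 13640858) encodes a G protein-coupled receptor for lysophosphatidylserine. It varied most between replicates of the genes with appreciable counts, with 7.98 and 40.9 in WT FO, 33.6 and 80.5 in cKO FO, 99.2 and 223 in WT MZ, and 602 and 465 in cKO MZ B cells. Both cKO MZ libraries were above all others, but the WT FO and cKO FO libraries overlapped. The cKO mean was 3.31-fold the WT mean in MZ B cells. The replicates differed 5.12-fold in WT FO, 2.25-fold in WT MZ and 2.40-fold in cKO FO B cells. The summed macrophage and monocyte markers were also higher in the replicate with more Gpr34 for WT MZ (908 and 2056), WT FO (834 and 1495) and cKO MZ B cells (2216 and 1524), but not in cKO FO B cells (1189 and 902). Their part in the Gpr34 values was not tested.

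Cd209a, a C-type lectin related to human DC-SIGN, was named as a gene higher in the FO than in the MZ subset of cKO mice. It was at 22.0 and 40.9 in WT FO and at 36.9 and 27.2 in cKO FO libraries, which overlapped. In MZ B cells it was at 3.85 and 13.6 in WT and at 3.99 and 0 in cKO libraries, which overlapped too and rest on 4, 15, 4 and 0 reads. Both FO groups were above both MZ groups, by 3.87 in cKO and 1.88 in WT B cells on the log2(value + 1) scale, and the first value rests on the 4 and 0 reads of the cKO MZ libraries. The FO means were 31.4 ± 13.4 in WT and 32.1 ± 6.91 in cKO libraries (SD, n = 2), and the MZ levels were at or close to the limit of 3 reads that a count of 0 allows, except in WT MZ replicate 2. Cd209a lies on chromosome 8 (3743397 to 3748984), and its nearest measured neighbour Fcer2a, 49.2 kb away, is the CD23 gene used in the sort.

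Serpina3f and Serpina3g encode clade A serpins, and the product of Serpina3g is an intracellular inhibitor of cathepsins in leukocytes. Their genes are adjacent on chromosome 12 (104214544 to 104221129 and 104236245 to 104241939, GRCm38, plus strand), 15.1 kb apart. The promoters of the pair are shown because the genes lie next to each other and both were higher in cKO libraries. They are the 250 bases before the first start site in RefSeq (GRCm38.p6, plus strand), at chr12:104214294-104214543 and chr12:104235897-104236146, with the only run of at least 12 bases found in both in capitals.
Serpina3f: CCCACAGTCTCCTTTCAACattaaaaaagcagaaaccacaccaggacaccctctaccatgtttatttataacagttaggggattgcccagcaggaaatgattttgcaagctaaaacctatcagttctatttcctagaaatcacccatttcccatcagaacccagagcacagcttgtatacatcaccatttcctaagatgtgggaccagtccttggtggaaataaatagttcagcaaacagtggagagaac
Serpina3g: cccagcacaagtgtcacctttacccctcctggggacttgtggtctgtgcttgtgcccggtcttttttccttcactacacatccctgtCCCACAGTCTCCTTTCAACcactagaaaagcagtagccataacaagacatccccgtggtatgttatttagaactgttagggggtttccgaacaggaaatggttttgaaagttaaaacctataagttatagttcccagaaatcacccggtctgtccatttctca
The shared run is 19 bases long. In a global alignment, 133 positions were identical, 28 held different bases and 178 were gaps, which is 82.6% identity over aligned bases. RefSeq lists another start site for Serpina3f, and the 250 bases before that start aligned to those of Serpina3g with 118 identical and 99 different bases, or 54.4% identity.

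Serpina3f was at 104 and 141 in WT FO, 204 and 345 in cKO FO, 100 and 110 in WT MZ, and 351 and 290 in cKO MZ B cells. All 4 cKO libraries were above all 4 WT libraries, and the subsets overlapped within each genotype. Serpina3g was at 725 and 932 in WT FO, 1132 and 1724 in cKO FO, 2074 and 1908 in WT MZ, and 3589 and 3212 in cKO MZ B cells. The groups did not overlap, and each subset's cKO libraries were above its WT libraries. In MZ B cells the cKO means were 3.05-fold the WT mean for Serpina3f and 1.71-fold for Serpina3g. In FO B cells the log2 differences of 1.13 (95% interval 0.48 to 1.77) and 0.76 (0.29 to 1.23) were not called, with limma adjusted p = 1.00 for each and DESeq2 adjusted p = 0.0894 and 0.0686. Of the distinct stretches of 50 bases, the length of a read, in their annotated transcripts, 10.6% of Serpina3f and 15.5% of Serpina3g also occur in transcripts of other genes, so some reads of the family are uncertain in origin. The aligned transcripts of the pair were 89.0% identical.

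Col27a1, a fibrillar collagen chain, was an FO gene in these data. It was at 412 and 393 in WT FO, 1148 and 1048 in cKO FO, 72.2 and 71.5 in WT MZ, and 144 and 224 in cKO MZ B cells. The groups did not overlap, and the cKO mean was 2.73-fold the WT mean in FO and 2.55-fold in MZ B cells. The FO difference, 1.44 on the log2 scale (SE 0.208), missed the threshold in limma with an adjusted p = 0.134 and in edgeR with 0.0993, and passed it in DESeq2 with an adjusted p = 1.01e-07. Alternatives ranged from 1.01e-07 to 0.999. Col27a1 spans chromosome 4 from 63214004 to 63334991, and the nearest measured genes on either side, Rgs3 and Gm11212, had FO differences of -0.25 and -0.22.

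Nectin1 (chromosome 9, 43743984 to 43807461), an immunoglobulin-like adhesion molecule of adherens junctions, followed the same order. It was at 138 and 93.2 in WT FO, 244 and 293 in cKO FO, 36.6 and 34.4 in WT MZ, and 82.7 and 146 in cKO MZ B cells. The WT FO and cKO MZ libraries overlapped and the other neighbouring groups did not. The cKO mean was 3.23-fold the WT mean in MZ B cells. In FO B cells it was 2.33-fold, a log2 difference of 1.23 (95% interval 0.49 to 1.97) that was not called (limma adjusted p = 1.00, DESeq2 adjusted p = 0.217).

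Sema6b (chromosome 17, 56123085 to 56140343), a transmembrane semaphorin that binds plexin A receptors, had the reverse subset pattern. It was at 32.9 and 39.0 in WT FO, 110 and 124 in cKO FO, 351 and 229 in WT MZ, and 760 and 622 in cKO MZ B cells. The 4 groups did not overlap. The cKO mean was 3.25-fold the WT mean in FO and 2.38-fold in MZ B cells, given without a test.

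Gm4734 is a processed pseudogene of 777 bases inside the gene Map4 on chromosome 9 (109970433 to 109971209), on the strand of Map4 and outside its exons. It had 710 reads in cKO MZ replicate 1 and 2 to 4 reads in each of the other 7 libraries, including 3 in cKO MZ replicate 2. Its place among genes higher in cKO MZ B cells thus rests on 1 library, and no fold is given for it. The closest transcripts by sequence were Rpl7-ps7 and Gm12174, both pseudogenes, and 37.1% of its stretches of 50 bases occur in other genes. Those relatives were not high in the same library, with 5.98 and 26.9 in cKO MZ replicate 1 and up to 12.3 and 24.6 in the other libraries. Map4 was at 2267 and 2348 in the cKO MZ libraries.

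**Figure D1:**
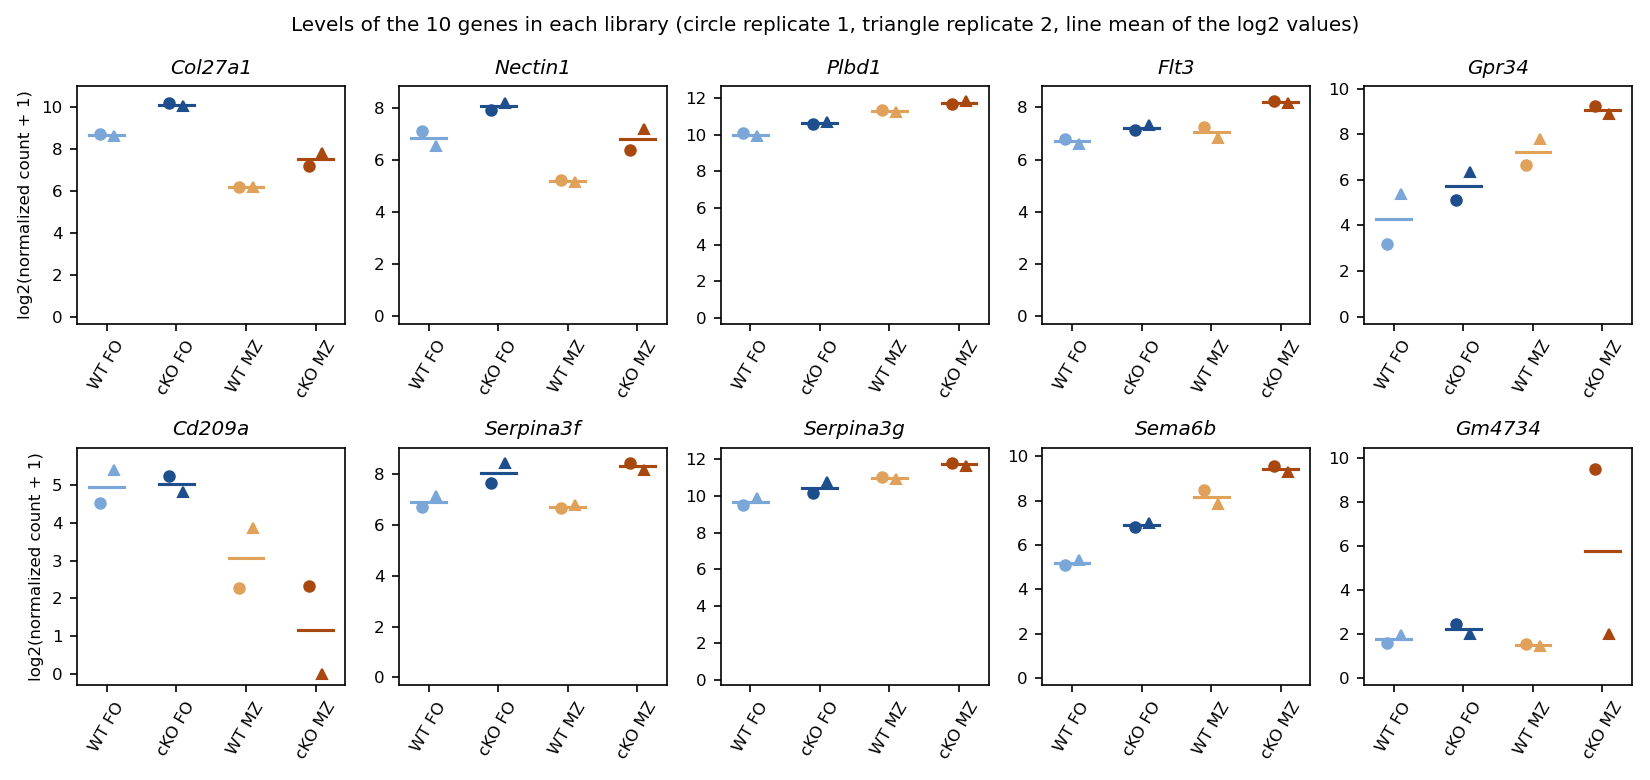
Level of each gene in each library as log2(normalized count + 1), with circles for replicate 1, triangles for replicate 2 and a line at the mean of the log2 values of a group (n = 2). Both cKO MZ libraries are the highest for Flt3, Plbd1, Gpr34, Serpina3g and Sema6b, both cKO FO libraries for Col27a1 and Nectin1, and for Gm4734 only cKO MZ replicate 1 stands out.

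Over the set, 8 of the 10 genes had both cKO FO libraries above both WT FO libraries, where 10.9% of the 14761 genes tested did so. In MZ B cells it was 9 of 10, beside 15.8% of all genes, and most of the set was selected on that contrast. Gm4734 is counted in each through differences of a few reads. Without it, the median log2 difference of the other 9 genes was 1.13 in FO and 1.28 in MZ B cells, beside -0.01 and -0.015 for all genes tested. The genes named with the MZ genotype comparison and not from FO against MZ contrasts were Col27a1, Nectin1, Plbd1, Flt3, Serpina3f and Serpina3g. For these 6, limma on all 8 libraries called 0 in FO B cells, edgeR 0 and DESeq2 2, namely Col27a1 and Plbd1, and the unadjusted limma p was under 0.05 for 6 of 6, beside 2.59% of all genes tested, in a set chosen for being higher in cKO B cells. Of all genes tested, 0.0542% were called higher in cKO FO B cells by limma, 0.0474% by edgeR and 0.129% by DESeq2. For each of the 6, the 95% interval of the FO difference excluded 0 before adjustment. Because FO values may have entered the choice of genes, neither these intervals nor the 6 of 6 can be read as independent support.

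**Figure D2:**
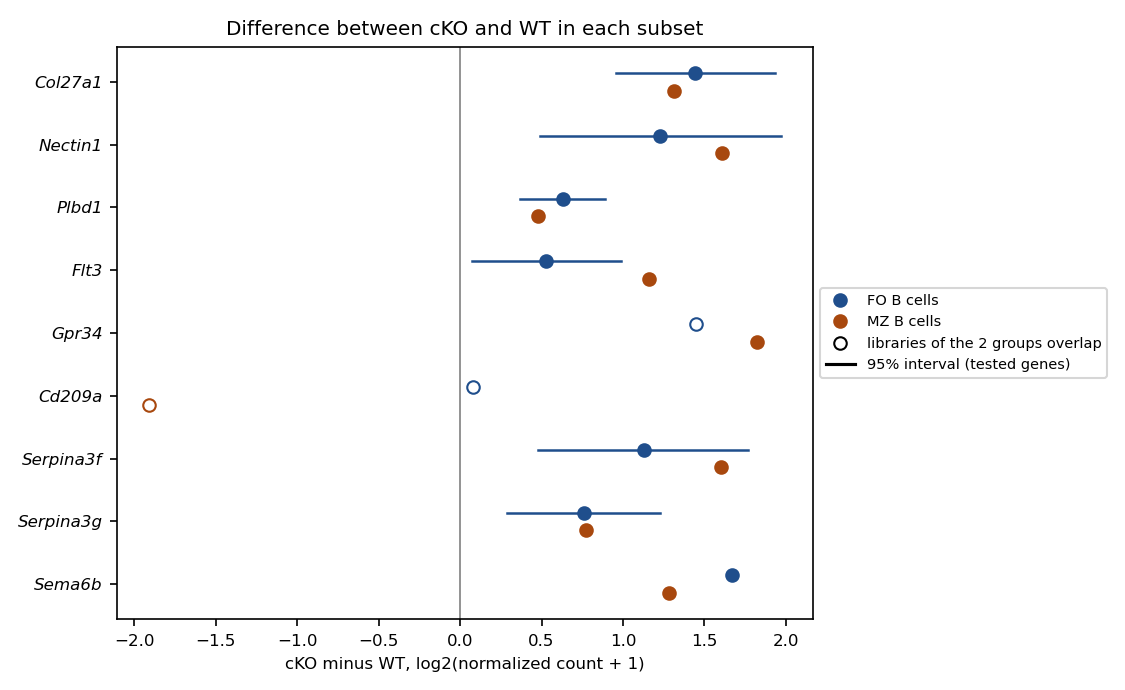
Difference between cKO and WT libraries in log2(normalized count + 1) for 9 genes in FO and MZ B cells, with open points where the libraries of the compared groups overlap and bars for the 95% interval of the 6 genes tested in FO B cells. All 9 points in FO B cells are above 0, from 0.08 for Cd209a to 1.67 for Sema6b, and only Cd209a is below 0 in MZ B cells, at -1.91 from no more than 15 reads a library. Gm4734 is left out because all but 1 of its libraries had at most 4 reads.

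The set did not share a subset preference. WT FO and WT MZ B cells were compared for the same 6 genes, bearing in mind that WT MZ libraries also stood in the contrast that selected them, where a low WT MZ value favours selection. The WT FO level of Col27a1 was 5.60-fold its WT MZ level (log2 2.47, SE 0.208, limma adjusted p = 0.000386) and that of Nectin1 3.25-fold (1.65, SE 0.317, adjusted p = 0.0119). Plbd1 and Serpina3g were each 2.40-fold higher in MZ B cells, with limma adjusted p = 0.000470 and 0.00543. The calls of Col27a1 and Nectin1 lie in the direction that the selection favours, so their p-values are not independent of it. Those of Plbd1 and Serpina3g lie in the other direction. Of all genes tested, 4.62% were called on the FO side and 7.41% on the MZ side. Flt3 (log2 -0.35, 95% interval -0.80 to 0.11, limma adjusted p = 0.282) and Serpina3f (0.20, -0.44 to 0.85, adjusted p = 0.681) were not called. Nectin1 was the only call of the 4 that ended when a library was left out: without WT FO replicate 1 its difference was 1.37 and its limma adjusted p = 0.0663.

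Differences of the other genes are a description, since Gpr34 and Cd209a were named from FO against MZ contrasts and the source of Sema6b is unknown. The WT MZ mean of Sema6b was 8.06-fold its WT FO mean (log2 -2.95), that of Gpr34 was 6.59-fold its WT FO mean, and the WT FO mean of Cd209a was 3.61-fold its WT MZ mean. In cKO B cells the differences between the subsets had the same sign as in WT for Col27a1 (2.61), Nectin1 (1.27), Plbd1 (-1.11), Flt3 (-0.98), Gpr34 (-3.32), Serpina3g (-1.28) and Sema6b (-2.55), as log2 of FO over MZ. Cd209a stayed on the FO side (3.87), and Serpina3f changed sign, at -0.26 with overlapping libraries. Whether the subset differences changed between genotypes was not tested, since the cKO MZ libraries selected the genes.

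**Figure D3:**
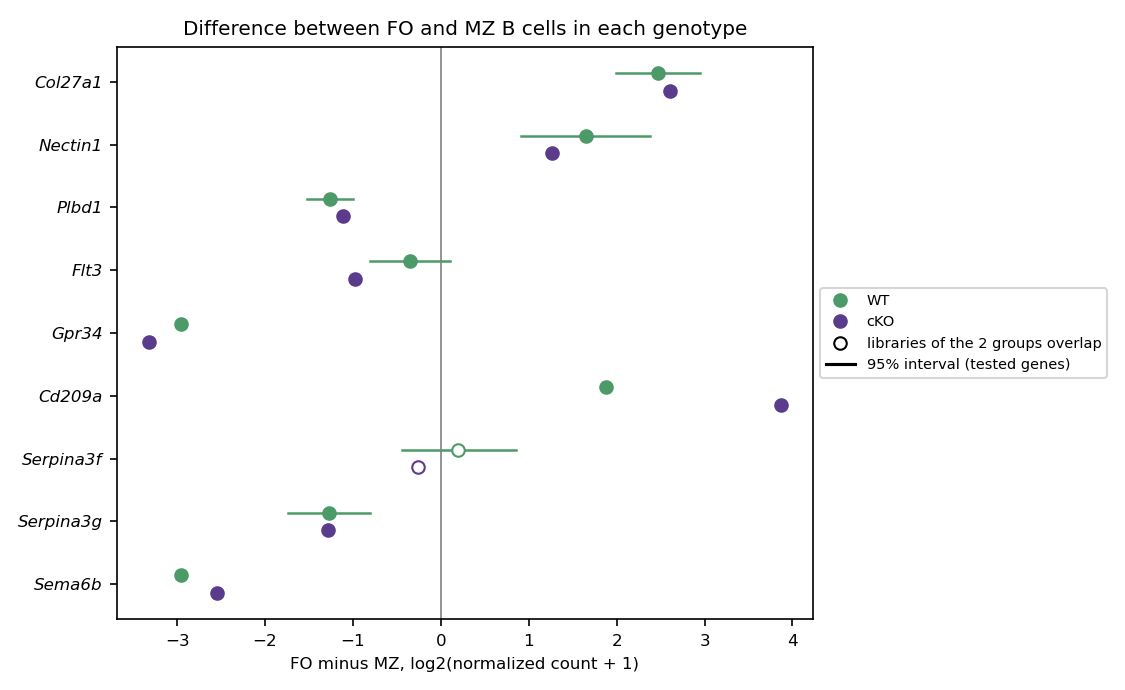
Difference between FO and MZ B cells in log2(normalized count + 1) for 9 genes in WT and in cKO libraries, with open points where the libraries overlap and bars for the 95% interval of the 6 genes tested in WT. Col27a1, Nectin1 and Cd209a lie on the FO side, Plbd1, Flt3, Gpr34, Serpina3g and Sema6b on the MZ side, and Serpina3f is close to 0, at 0.20 and -0.26. The cKO point of Cd209a rests on 4 and 0 reads in its MZ libraries.

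Replicates agreed to within 1.5-fold in 28 of the 40 combinations of gene and group and differed at least 2-fold in 6, which are Gpr34 in 3 groups, Cd209a in WT MZ and cKO MZ B cells, and Gm4734 in cKO MZ B cells. In WT MZ B cells Col27a1 replicates differed 1.01-fold, and in cKO MZ B cells 1.56-fold. For comparison, the median SD of the log2 values between replicates over all genes tested was 0.166 for WT FO, 0.135 for cKO FO, 0.144 for WT MZ and 0.104 for cKO MZ B cells, while in cKO MZ B cells the SD was 0.45 for Col27a1, 0.58 for Nectin1 and 0.06 for Flt3.

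Per kilobase of exon, most of the set was scarce. Plbd1 and Serpina3g were the most abundant genes of the set per length in WT B cells, at 16.4 RPKM each in FO and 40.7 and 40.8 RPKM in MZ B cells, and they reached 58.3 and 71.5 RPKM in cKO MZ B cells. Flt3 was at 0.692 RPKM in WT FO and 2.11 RPKM in cKO MZ B cells. Col27a1 and Nectin1 were at 1.28 and 0.846 RPKM in WT FO and at 3.51 and 1.98 RPKM in cKO FO B cells. Gpr34 and Sema6b were at 3.35 and 3.14 RPKM in WT MZ and at 11.3 and 7.72 RPKM in cKO MZ B cells. Serpina3f was at 1.98 to 2.22 RPKM in the WT groups and Cd209a at no more than 0.843 RPKM in any group.

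The relatives of these genes were then followed. Lists of their family members, ligands and receptors named 60 other genes, of which 51 were in the table and 22 had a mean normalized count of at least 10. None of the 22 was called between genotypes in FO or MZ B cells by limma, edgeR or DESeq2, with an unadjusted limma p under 0.05 for 1 in FO and 2 in MZ B cells, where 2.59% and 4.04% of all genes tested were under it. Both cKO libraries were above both WT libraries for 1 of the 22 in each subset, Gpr174. Its differences were 0.06 in FO and 0.09 in MZ B cells on the log2 scale. Over all genes tested, 10.9% in FO and 15.8% in MZ B cells had this order. The cKO values lay entirely under the WT values for 1 of the 22 in FO and 5 in MZ B cells. The share of all genes in that reverse order was not computed, so these counts are not read as a fall. The median log2 difference of the 22 was 0.03 in FO and -0.05 in MZ B cells. Flt3l, the ligand of Flt3, was at 790 to 1023 in every library. Csf1r, the related receptor for the macrophage growth factor CSF1, was at 66.9 to 299 and Kit, the stem cell factor receptor, at 4.82 to 32.9. Plbd2, the relative of Plbd1, was at 982 to 1290.

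The other lysophosphatidylserine receptors Gpr174, P2ry10 and P2ry10b were higher in WT FO than in WT MZ B cells by 0.95, 1.09 and 1.04 on the log2 scale, of which Gpr174 and P2ry10b were called (limma adjusted p = 0.000339 and 0.0101), whereas Gpr34 was higher in MZ B cells. Gpr174, the most even of them, was at 5052 to 5471 in FO and 2616 to 2882 in MZ B cells of either genotype. Among fibrillar collagens, Col11a2 was at 375 to 599, and the connective tissue collagens Col1a1, Col1a2 and Col3a1 were at 0 to 6.66 in 7 libraries and at 111, 45.4 and 37.1 in cKO MZ replicate 2. Col27a1 was 1.56-fold higher in that library than in cKO MZ replicate 1. The other Cd209 and Serpina3 protein genes listed, 3 and 5 of which were in the table, stayed at or below 3.62. Of the plexin A receptors of Sema6b, Plxna3 was at 328 to 475 and Plxna1 at 42.3 to 87.6.

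Levels of the genes next to the set on the chromosomes were compared in the same way. Of the 18 nearest measured genes outside the set, 2 in FO and 1 in MZ B cells had both cKO libraries above both WT libraries. These were Oaf near Nectin1 and Gm44401 in FO and Gm44401 in MZ B cells. Among all genes tested, 10.9% in FO and 15.8% in MZ B cells had this order. The reverse order, with cKO values entirely under the WT values, held for 1 of the 18 in FO and 4 in MZ B cells. Its share over all genes was not computed, so nothing is read from these counts. The median log2 difference of the 18 was 0.06 in FO and -0.02 in MZ B cells. None was called by limma or edgeR, with an unadjusted limma p under 0.05 for 2 in FO and 0 in MZ B cells (2.59% and 4.04% of all genes tested), and DESeq2 called 0 in FO and 1 in MZ B cells, Serpina3e-ps. Hdgfl2 and Tnfaip8l1, which flank Sema6b at 22.5 and 22.1 kb, had FO differences of -0.05 and 0.26. Cask, inside which Gpr34 lies on the opposite strand and outside its exons, was at 70.9 to 85.6 in WT FO and 79.5 to 86.6 in cKO FO B cells. Serpina3e-ps, the pseudogene 21.6 kb before Serpina3f, was at 182 in cKO MZ replicate 1 and at 0.906 to 7.05 in the other libraries. This is the library that also held the Gm4734 reads.

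**Figure D4:**
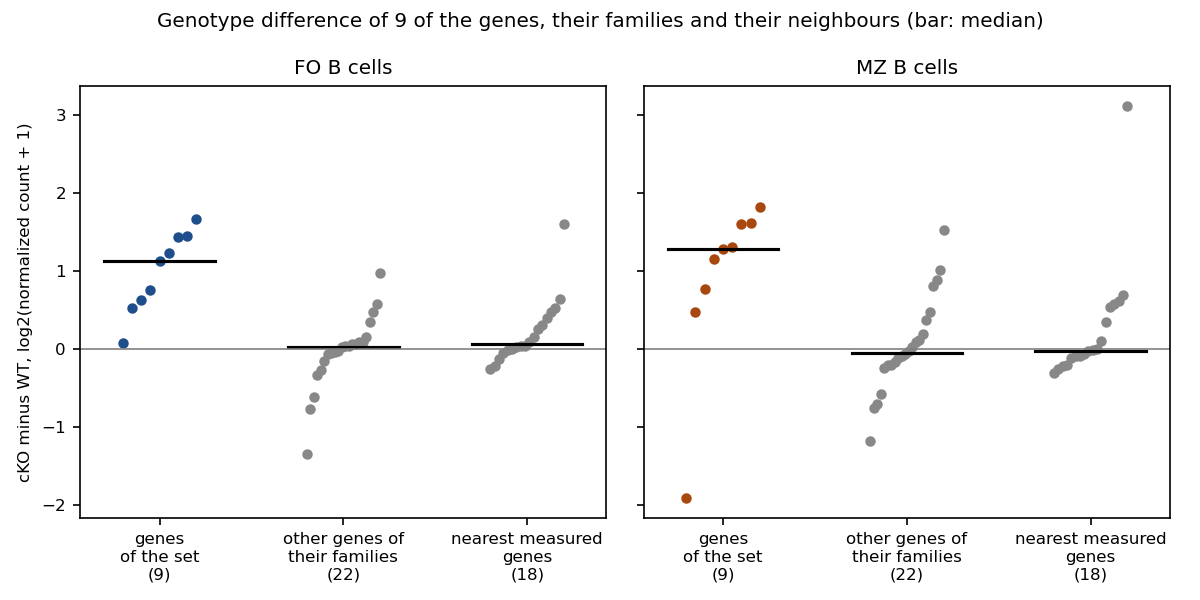
Difference between cKO and WT libraries in log2(normalized count + 1) for 9 genes of the set, the 22 measured other genes of their families and the 18 nearest measured genes, in FO and MZ B cells, with bars at the medians. The medians of the set are 1.13 and 1.28, those of the families 0.03 and -0.05, and those of the neighbours 0.06 and -0.02, and the highest neighbour in MZ B cells, at 3.12, is Serpina3e-ps. The set was selected for being higher in cKO B cells.

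The promoters were searched for CACGTG, an E-box that reads the same on each strand. It was absent from the 250 bases before all 9 start sites listed in RefSeq for 7 of the 10 genes, and was present in 6.02% of 32851 mouse promoters of that length. Nectin1, Gpr34 and Gm4734 had no entry. With so few promoters, and the 2 of Serpina3f overlapping, absence of so rare a motif does not set these genes apart from other genes. Binding of TFII-I was not tested.

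Since several genes of the set are known from other cell types, markers of those types were summed in every library. The 6 B cell markers summed to 164636 to 230389. The 11 dendritic cell markers, all in the table, summed to 2678 to 2904 in WT FO, to 2440 to 3020 in cKO FO, 2886 to 3647 in WT MZ and 2945 to 3194 in cKO MZ B cells, mostly from Cst3 and Sirpa. The more restricted Clec9a was at 0 in both cKO FO libraries and at 0.997 and 1.03 in the cKO MZ libraries, and at 0.963 to 9.96 in the WT libraries. Itgax was at 64.5 and 215 in WT MZ and 81.7 and 57.7 in cKO MZ B cells. Zbtb46, a transcription factor of conventional dendritic cells, was at 75.7 and 55.7 in the cKO MZ libraries, at 38.1 and 34.2 in the cKO FO libraries and at 32.3 to 49.1 in the 4 WT libraries. Zbtb46 and Flt3 were both above every WT library in the 2 cKO MZ libraries, and the part of dendritic cells in the Flt3 values was not tested. The 15 macrophage and monocyte markers, all in the table, summed to 834 to 1495 in WT FO, 902 to 1189 in cKO FO, 908 to 2056 in WT MZ and 1524 to 2216 in cKO MZ B cells. Marco and Siglec1 were at 24.5 or lower throughout. The complement genes C1qa, C1qb and C1qc were at 29.9, 29.9 and 22.2 in WT MZ replicate 1, at 113, 142 and 144 in WT MZ replicate 2, at 167, 184 and 199 in cKO MZ replicate 1 and at 125, 127 and 124 in cKO MZ replicate 2. Both cKO MZ libraries were thus above both WT MZ libraries for C1qa and overlapped them for C1qb and C1qc. Siglec1 was lower in the cKO MZ (1.99 and 4.12) than in the WT MZ libraries (5.78 and 15.4). Adgre1 was at 53.0 and 160 in WT MZ and at 76.7 and 65.0 in cKO MZ libraries. Lyz2 was at 95.3 and 523 in WT MZ and at 559 and 127 in cKO MZ libraries. Both overlapped between the genotypes in MZ B cells, as did Csf1r, Cd68, Mertk, Marco, Cd163, Ly6c2, Ccr2 and Fcgr1. Spic, which encodes a transcription factor of red pulp macrophages that B cells also express, was at 71.9 and 62.8 in WT FO, 109 and 159 in cKO FO, 178 and 159 in WT MZ, and 251 and 293 in cKO MZ B cells. The part of macrophages in the values of the set was not tested.

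Granulocyte and erythroid markers set apart cKO MZ replicate 1. The 16 granulocyte markers summed to 2141 there and to 63.8 to 146 in the other 7 libraries, and the 6 erythroid markers to 14161 there and 26.9 to 1067 elsewhere. Gm4734 and Serpina3e-ps shared that pattern, and the part of these cells in their values was not tested. Without this library, Gm4734 had 2 to 4 reads everywhere. Flt3, Plbd1, Serpina3g, Nectin1 and Col27a1 remained higher in the remaining cKO MZ library than in both WT MZ libraries, as did Gpr34, Serpina3f and Sema6b. Most of these genes were selected on that contrast, so this order was largely fixed by the choice. The part of granulocytes and erythroid cells in their values was not tested. For stromal and endothelial cells, 15 of 17 markers were in the table and summed to 5629 to 8073, nearly all Pecam1, a molecule that B cells express too. Pdpn was at 1.99 or lower and Kdr at 6.34 or lower. Col1a1, Col1a2 and Col3a1, which are fibroblast markers of the same list, were at 111, 45.4 and 37.1 in cKO MZ replicate 2 and at 0 to 6.66 elsewhere. Col27a1 and Nectin1 were also higher in that library than in cKO MZ replicate 1, and the part of stromal cells in their values was not tested. The 6 T cell markers summed to 22.2 to 54.9.

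**Figure D5:**
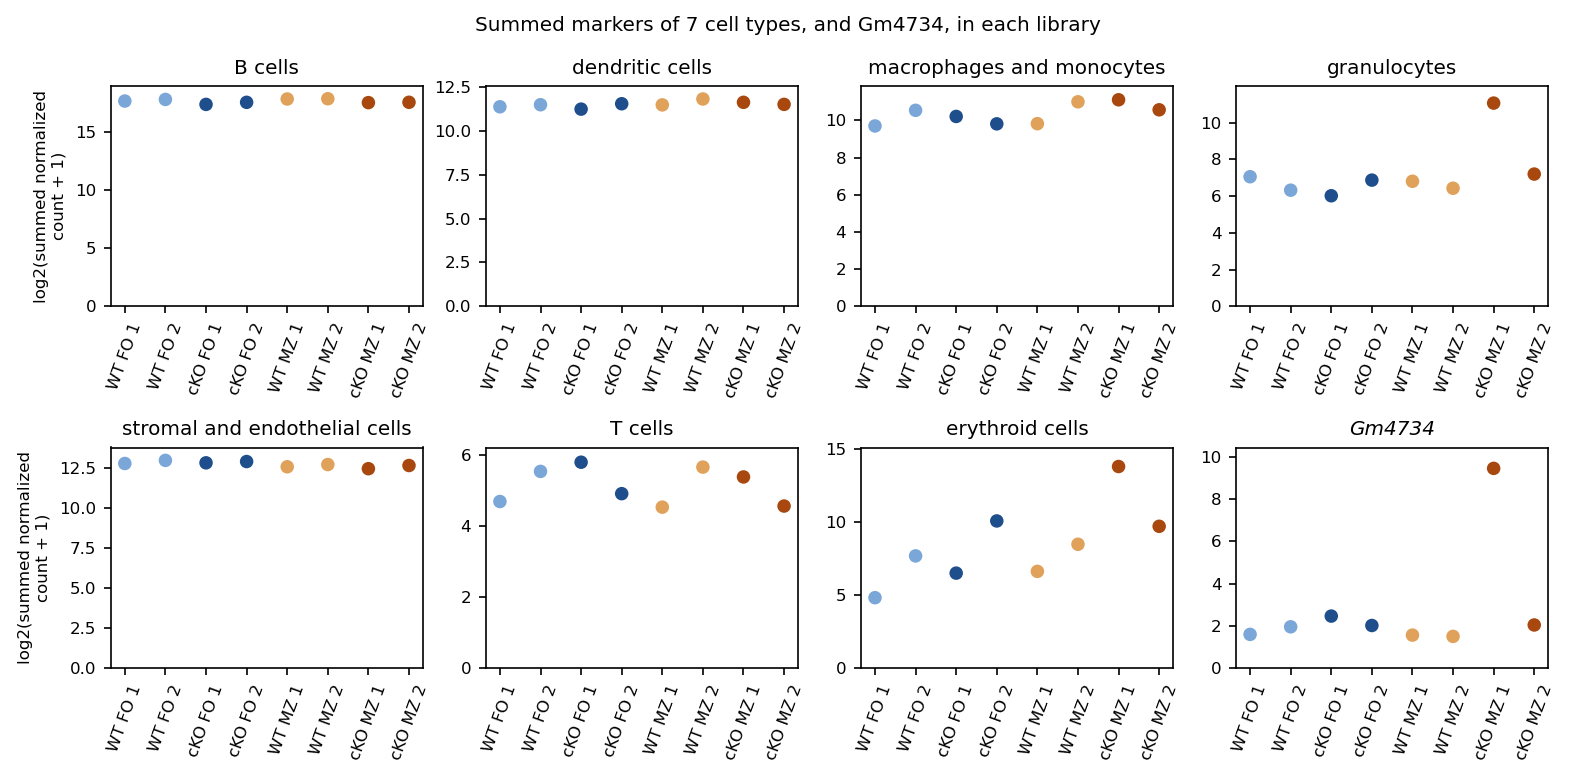
Summed normalized counts of the markers of 7 cell types in each library, and the normalized count of Gm4734, as log2(sum + 1), colored by group. Granulocyte and erythroid markers and Gm4734 are highest in cKO MZ replicate 1 (2141, 14161 and 708), while the dendritic cell sum stays between 2440 and 3647 in all 8 libraries.

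The genes with the most similar profiles were taken from all genes tested by Pearson's r of the log2 values over the 8 libraries, which share the same 4 groups, as a description only. Col27a1 was most similar to Rbpms (r = 0.988), an RNA-binding protein gene at 209 to 248 in WT FO and 356 to 382 in cKO FO B cells. Plbd1 was most similar to Pold4 (0.996), a DNA polymerase delta subunit gene, and Serpina3g to 2900026A02Rik (0.996) and Aifm2 (0.992), the gene of a ferroptosis suppressor. Sema6b was closest to the calcium channel gene Cacna1e (0.990), at 4148 to 4379 in WT FO and 6762 to 7784 in cKO FO B cells. Flt3 was closest to the imprinted noncoding RNA Peg13 (0.984), at 3001 to 3564 in WT and 3527 to 4606 in cKO libraries. Nectin1 was closest to Qser1 (0.983), and Gpr34 to Eme2 (0.993), and Zfp467 (0.976) was among the 3 genes closest to Cd209a. Serpina3f was closest to the noncoding Gm44037 (0.971) and Gm29650 (0.964), and Gm29650 is Y-linked, at 0 in the 4 WT libraries and at 28.0 to 67.4 in the cKO libraries. Within the set, r was 0.94 between Col27a1 and Nectin1, 0.98 between Sema6b and Serpina3g and between Sema6b and Plbd1, and 0.56 between Serpina3f and Serpina3g.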

How the data were processed

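RNA of 8 libraries (WT FO, WT MZ, cKO FO and cKO MZ B cells, 2 each) was used, and 8 ATAC-seq samples were not analysed here. The authors aligned single-end reads with HISAT2 to mm10, counted them on genes and deposited the signal as normalized counts, in which DESeq2 size factors scale the reads of each library. Versions and the strand setting are not given in the sources used here. Dividing by the value of 1 read gave whole reads (tolerance 0.01) for 100% of values, and the library totals were 21546552 to 25083552 reads. At this depth the number of libraries, not counting, limits precision for all but genes with few reads. A count of 0 allows up to 3 reads, and this covers counting error only. Of 27928 genes, 256343 blank lines aside, 14761 had a mean normalized count of at least 10 and were tested with limma (version 3.58.1, lmFit and eBayes with trend, R 4.3.3) on log2(value + 1), in a single fit of 4 group means. Fold changes are ratios of group means, and log2 differences are on the log2(value + 1) scale, which understates changes of low genes. Calls needed a 1.5-fold difference or more and an adjusted p (Benjamini-Hochberg) of 0.05 or less. An exact two-sided permutation test of 2 against 2 libraries cannot go below p = 0.333 and was not used.

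Positions are from GENCODE M21 (GRCm38), in which 27872 identifiers were found, and promoters from RefSeq (GRCm38.p6). RPKM was computed from the reads and the union of annotated exons. The fits were tested on simulated data first.

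Alternatives were another pseudocount (0.5), no filter, quantile normalization, only the 4 libraries compared, each library left out, the replicate number as a term, and DESeq2 (1.42.0) and edgeR (4.0.16) on the recovered reads. The 10 genes, their families (relatives, ligands and receptors), the marker lists and the tests were chosen with earlier results of these data known. Other named genes are the nearest tested gene on each side, and the 3 genes with the highest correlation over the 8 libraries, of which 1 or 2 are given for each, chosen with their values in view.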

Additional observations from a re-analysis of the deposited data

How the results depend on the processing

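Of the 96 values of the 6 genes tested in FO B cells under the alternatives, 93 kept their direction and side of the threshold, and 3 passed it: Col27a1 and Plbd1 in DESeq2, and Col27a1 in the exchanged pairing below. Of the 96 values of the 6 genes tested between WT FO and WT MZ B cells, 94 did, Nectin1 lost its call without WT FO replicate 1, and Serpina3f, which was not called, was at -0.01 to 0.42 on the log2 scale with each library left out, the lowest without WT FO replicate 2. Over all genes, the number called between genotypes in FO B cells was 10, and 25 in DESeq2, 4 with only the 4 libraries compared and 4 to 11 with each library left out, namely 4 without WT FO replicate 1 or cKO MZ replicate 1, 5 without cKO FO replicate 1 or cKO MZ replicate 2 and 6 without WT FO replicate 2 or cKO FO replicate 2. Between genotypes in MZ B cells it was 5, and 48 in DESeq2 and 4 to 7 with each library left out. Between WT FO and WT MZ B cells it was 1776, and 1014 with only the 4 libraries compared and 1220 to 1628 with each left out, and between cKO FO and cKO MZ B cells it was 2026, and 1073 to 2119, with 1073 without cKO MZ replicate 1, 1348 without cKO MZ replicate 2 and 1210 without cKO FO replicate 1. Where fewer libraries were fitted, a group left with 1 library was assumed to vary like the others. The cause of the differences between tools was not tested.

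With the replicate number as a term in the fit (replicate block), 9, 5, 1973 and 2262 genes were called in these 4 comparisons in the same order, and no call of a tested gene of the set changed. Deviations of same-numbered libraries from their group means correlated at 0.59 between WT FO and WT MZ, 0.29 between WT FO and cKO FO, 0.16 between WT MZ and cKO FO, 0 between cKO FO and cKO MZ, -0.17 between WT FO and cKO MZ and -0.30 between WT MZ and cKO MZ B cells. The numbers thus went together in the WT libraries and not for cKO MZ B cells, and as not every pair was above 0.1 they were not taken as a pairing. With the cKO MZ numbers exchanged, an alternative chosen after seeing the data, the counts were 16, 12, 2262 and 2585.

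DESeq2 called the most genes between genotypes of the 3 tools run. Gm4734 and Cd209a are limited by reads, with at most 4 reads in 7 libraries for Gm4734 and at most 43 for Cd209a.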

Other observations

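Oaf, 504 kb before Nectin1 and the nearest measured gene on that side, was at 7.98 and 14.3 in WT FO, 25.8 and 46.3 in cKO FO, 9.63 and 19.0 in WT MZ, and 18.9 and 26.8 in cKO MZ B cells. The FO difference of 1.60 on the log2 scale was not called (limma adjusted p = 1.00).

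Ak7, an adenylate kinase gene, was among the 3 genes most similar to both Plbd1 (r = 0.995) and Sema6b (r = 0.990) over the 8 libraries. It was at 3.99 and 3.81 in WT FO, 8.96 and 10.1 in cKO FO, 27.9 and 24.5 in WT MZ, and 45.8 and 48.5 in cKO MZ B cells, so that its groups did not overlap. The gene 2900026A02Rik, similar to Serpina3g, was at 8.98 and 17.1 in WT FO, 23.5 and 44.3 in cKO FO, 57.8 and 53.4 in WT MZ, and 195 and 139 in cKO MZ B cells. Both were picked for their likeness to genes of the set, and no test was made.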
